A study of Homo sapiens with 18 samples.

Results

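Regulators of G protein signaling, the RGS proteins, were examined through the messenger RNA of 10 of their genes in HEK293 cells, a human embryonic kidney line, with and without stimulation of the β2-adrenergic receptor (β2AR). The genes are RGS2, RGS3, RGS4, RGS5, RGS10, RGS12, RGS14, RGS16, RGS17 and RGS19. They were chosen by name, with earlier results of these data known. They are 10 of the 34287 genes to which the deposited transcripts could be assigned. All 10 passed the filter on low counts, which left 15530 genes for testing. Poly(A) RNA was sequenced from 3 cell lines (the wildtype line, Gαs KO cells and β-arrestin1/2 KO cells) kept for 1 h with vehicle (basal) or with 1 μM isoproterenol, an agonist of β-adrenergic receptors. This gave 6 groups of 3 biological replicates, or 18 libraries. Cells of every group, controls included, had been transiently transfected with a β2AR plasmid 48 h earlier and serum starved overnight, so the responses are those of cells given extra receptor. Both KO lines had been made by CRISPR–Cas9, and whether each is a single clone is not given in the sources used here. The labels give biological replicates without saying whether these were separate cultures, so the p-values measure the spread between libraries, which may be partly technical.

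RGS proteins share a domain that speeds the hydrolysis of GTP by Gα subunits, which ends the signal of the G protein. Most act on Gαi and Gαq family subunits, and those studied here are not known as efficient accelerators of GTP hydrolysis on Gαs, the subunit through which β2AR raises cAMP. RGS2, RGS3, RGS4, RGS5 and RGS16 belong to the R4 subfamily, whose members are mostly little more than the RGS domain with a short amino-terminal helix. RGS10, RGS12 and RGS14 form the R12 subfamily, and RGS17 and RGS19 belong to the RZ subfamily, marked by a string of cysteines. Transcripts of some R4 members, RGS2 and RGS16 among them, are known to rise soon after receptor stimulation in many cell types.

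The upstream regions of 3 genes on which the results turn are shown first, RGS2 and RGS16 because they rose with isoproterenol and RGS19 because it differed most between Gαs KO and wildtype cells at basal. Each is the 250 bases before the annotated RefSeq transcript start on the gene's own strand, 5′ to 3′, in GRCh38.p14. The RGS2 region is chr1:192808789-192809038 on the plus strand, that of RGS16 is chr1:182604390-182604639 on the minus strand, and that of RGS19 is chr20:64079965-64080214 on the minus strand, the more distal of its 2 annotated starts. Capitals mark the CRE half-site, the letters TGACG or their reverse complement CGTCA, to which transcription factors of the CREB family can bind.
RGS2: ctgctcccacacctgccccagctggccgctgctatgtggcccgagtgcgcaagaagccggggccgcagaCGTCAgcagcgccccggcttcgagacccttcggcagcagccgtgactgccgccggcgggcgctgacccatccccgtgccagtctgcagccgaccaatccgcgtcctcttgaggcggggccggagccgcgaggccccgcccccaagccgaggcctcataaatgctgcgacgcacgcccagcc
RGS16: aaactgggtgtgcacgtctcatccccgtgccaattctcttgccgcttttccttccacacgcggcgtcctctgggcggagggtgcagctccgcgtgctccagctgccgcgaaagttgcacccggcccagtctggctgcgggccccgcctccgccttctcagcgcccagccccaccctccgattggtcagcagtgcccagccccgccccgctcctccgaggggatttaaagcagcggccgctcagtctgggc
RGS19: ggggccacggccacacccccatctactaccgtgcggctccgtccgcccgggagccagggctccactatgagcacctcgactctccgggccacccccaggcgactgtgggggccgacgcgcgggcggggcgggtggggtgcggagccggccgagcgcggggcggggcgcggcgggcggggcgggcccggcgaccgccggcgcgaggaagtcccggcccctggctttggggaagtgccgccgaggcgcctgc

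A half-site was found once in the RGS2 region, from base -181 to base -177 before the start, and in neither of the other regions shown. Among all 10 genes, which matched 24 RefSeq promoters, RGS2, RGS3, RGS4 and RGS12 held at least 1 half-site. By promoter, RGS2, RGS3 and RGS12 each held it in 1, and RGS4 in those with matches from base -32 and from base -139. Of the 27305 genes with RefSeq promoters searched over the same length on both strands, 24.9% held one in at least 1 promoter, as did 21.2% of the 35116 promoters taken singly. The 10 genes had more promoters per gene than all genes did, which raises their share per gene for any motif. The full palindrome TGACGTCA, which contains the half-site, was in 0 of the 10 genes and in 2.03% of all genes. The letters TATAAA or their reverse complement were found in 2 of the 10 genes, RGS3 and RGS4, and in 3563 of the 27305 genes, and the CArG box, bound by serum response factor, was in 0 of the 10 genes and in 1.44% of all genes. These matches describe the letters of the windows only.

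Totals ran from 17908597 to 25019834 estimated read pairs per library with a median of 20419460. Of these pairs 92.9 to 93.8% were counted on transcripts that could be assigned to genes of the annotation used here. Counts were scaled to a common library size (normalized counts), and a gene was called when its p, adjusted over all genes tested, was under 0.05. GNAS, which encodes Gαs, had 25207 ± 7249 normalized counts in wildtype and 1264 ± 96.5 in Gαs KO cells at basal (mean ± SD, n = 3). ARRB2, for β-arrestin2, had 1892 ± 546 normalized counts in the wildtype line and 397 ± 48.7 without the β-arrestins, while ARRB1, for β-arrestin1, had 948 ± 268 and 786 ± 54.9 and was not called (adjusted p = 0.14), so its transcript level did not separate these lines. All 9 HEK293 markers were present. Of the markers of other cell types, fibroblast genes summed to 10.7 to 24.1 TPM (a length-corrected level) per library with COL1A2 and DCN under 10 counts in all libraries, endothelial genes to 0.593 to 2.03 TPM, and blood genes to 4.2 to 15.4 TPM with HBB at 0 and PTPRC under 10 counts. COL1A1, LUM, VWF and CD68 passed the filter on low counts and were called at basal. Against wildtype cells, LUM (log2 difference 2.13) and COL1A1 (-0.75) were called in Gαs KO and VWF (-1.22) in β-arrestin1/2 KO cells. CD68 was lower in both (-1.7 in β-arrestin1/2 KO and -1.31 in Gαs KO cells). These calls stood without wildtype basal replicate 1, described next. All 3 endothelial genes reached 10 counts in at least 1 library. One library stood apart. The mean GC content of the transcripts counted in wildtype basal replicate 1 was 52.49%, against 49.15 to 50.1% in the other 17 libraries. The calls of RGS genes and listed proteins that rest on wildtype basal cells are therefore given with and without that library. The main fit takes the spread from all 18 libraries, so that library also enters the standard errors and calls of the KO responses. Those were fitted without it only where the fit held only the groups compared. In bulk RNA, fewer cells expressing a gene and less RNA per cell cannot be told apart.

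The 10 genes covered a wide range of levels. RGS10, the smallest member of the R12 subfamily, was the highest per transcript length in each of the 6 groups, with 103 ± 14.3 TPM in wildtype basal cells and 79.6 to 112 TPM as group means. RGS16, a regulator of Gαi and Gαq, followed at 39.8 ± 5.57 TPM in wildtype basal cells. RGS19, first described as a Gαi-interacting protein, had 31.4 ± 4.95 TPM there, and its range overlapped that of RGS16. RGS14, which also carries a Gαi-binding GoLoco motif, had 18.8 ± 5.7 TPM, RGS2 13.7 ± 5.23 TPM and RGS12 10.8 ± 0.892 TPM, and neighbors in this order overlapped. RGS3 and RGS5 lay near 5 TPM, at 5.19 ± 0.437 and 4.49 ± 2.57 TPM. RGS17 (0.834 ± 1.17 TPM) and RGS4 (0.243 ± 0.138 TPM) were the lowest. With isoproterenol RGS2 moved up to the third place in wildtype cells, at 39.3 ± 2.07 TPM, above the range of RGS19 at 32.1 ± 2.6 TPM.

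The level of a gene rested on a single transcript for some members only. RGS16 has 1 annotated transcript. RGS2-201 held at least 96.4% of the RGS2 counts as group means and RGS10-202 held 96.9 to 99.8% of the RGS10 counts. RGS19-201 held 82.4 to 91.6%. RGS12-201 took 44.1 to 56.3% of the RGS12 counts but 34.2 to 41.7% per transcript length. For RGS14 the transcript with most counts over all libraries was RGS14-202, annotated as a retained intron, with 28.3 to 54.3% of the counts as group means. It was the highest RGS14 transcript in 16 of the 18 libraries, and the protein-coding RGS14-201 exceeded it in Gαs KO basal replicate 1 (74.9 against 11.4 counts) and in β-arrestin1/2 KO isoproterenol replicate 3 (82.5 against 33.5 counts). The leading transcripts of RGS3, RGS4, RGS5 and RGS17 were highest in only 14, 10, 10 and 13 of the 18 libraries, with an SD of up to 57.7 percentage points between replicates for those of RGS17 and RGS4. The TPM values above divide each transcript's count by its own length, so for these 4 genes and RGS14 they depend on this split. RGS17 had 32 and 21 counts in wildtype basal replicates 2 and 3, but 2.17 and 0.297 TPM. Apart from TPM, these 4 genes and RGS14 are described by their gene sums. RGS5 also overlaps NUF2 on the opposite strand, and whether the estimates used strand is not given in the sources used here. Another gene entry named RGS5 overlaps it on the same strand, and opposite-strand genes overlap RGS2 and RGS3. None of these further entries had a transcript matched in the deposited counts.

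The comparison of isoproterenol with basal wildtype cells asked which of these genes respond to β2AR within 1 h. RGS2 and RGS16 rose, 2 of the 10 genes, where 0.464% of all genes tested were called. Both belong to the R4 subfamily. None of the 10 fell.

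RGS2 (ENSG00000116741, chromosome 1 from 192809039 to 192812283, plus strand in GRCh38), an R4 member that acts chiefly on Gαq, had 133, 194 and 247 normalized counts in the wildtype basal libraries and 513, 551 and 515 with isoproterenol. All 3 stimulated libraries were above all basal ones, while the basal libraries differed among themselves by more than the stimulated ones did. The log2 difference was 1.46 (SE 0.18), a 2.75-fold rise with an adjusted p of 0.00034 in edgeR's quasi-likelihood test. Without wildtype basal replicate 1, the lowest of the basal libraries for RGS2, it was 1.25 (adjusted p = 9.9e-05). When only the wildtype libraries entered the fit the same difference had an adjusted p of 0.2.

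RGS16 (ENSG00000143333, chromosome 1 from 182598623 to 182604408, minus strand) had 1355, 954 and 855 normalized counts at basal and 1594, 1700 and 1821 with isoproterenol. The groups did not overlap, but the basal library of replicate 1 was closer to the stimulated libraries than to the lowest basal one. The log2 difference was 0.69 (SE 0.12), a 1.62-fold rise (adjusted p = 0.011), and it was 0.91 (adjusted p = 1.4e-07) without wildtype basal replicate 1. The call was lost without wildtype isoproterenol replicate 3 (0.64, adjusted p = 0.063) and when only the wildtype libraries entered the fit (adjusted p = 0.95).

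RGS4 (ENSG00000117152, chromosome 1 from 163068775 to 163076802, plus strand), a regulator of Gαi and Gαq, had 4.2, 10.0 and 2.2 normalized counts at basal and 27.2, 14.2 and 20.9 with isoproterenol. Its groups did not overlap, as for the 4.85% of all genes tested that were higher in every stimulated library, and its difference of 1.90 (SE 0.72) did not pass the test (adjusted p = 0.39). RGS4 reached the count that the low-count filter asks for in 8 of the 18 libraries, among them 3 stimulated wildtype libraries and 0 wildtype basal libraries. The other 7 genes had log2 differences from -0.33 (RGS14) to 0.33 (RGS5) with adjusted p values from 0.56 to 0.99, and their groups overlapped. Without wildtype basal replicate 1 the difference of RGS4 was 1.73 (adjusted p = 0.36), and those of the other 7 genes ran from -0.29 (RGS17) to 0.16 (RGS19) with adjusted p values from 0.49 to 0.96. The signs of RGS5, RGS14, RGS17 and RGS19, which were called in neither fit, changed. Over the 10 genes the median log2 difference was 0.14, beside -0.002 over all genes tested.

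**Figure D1:**
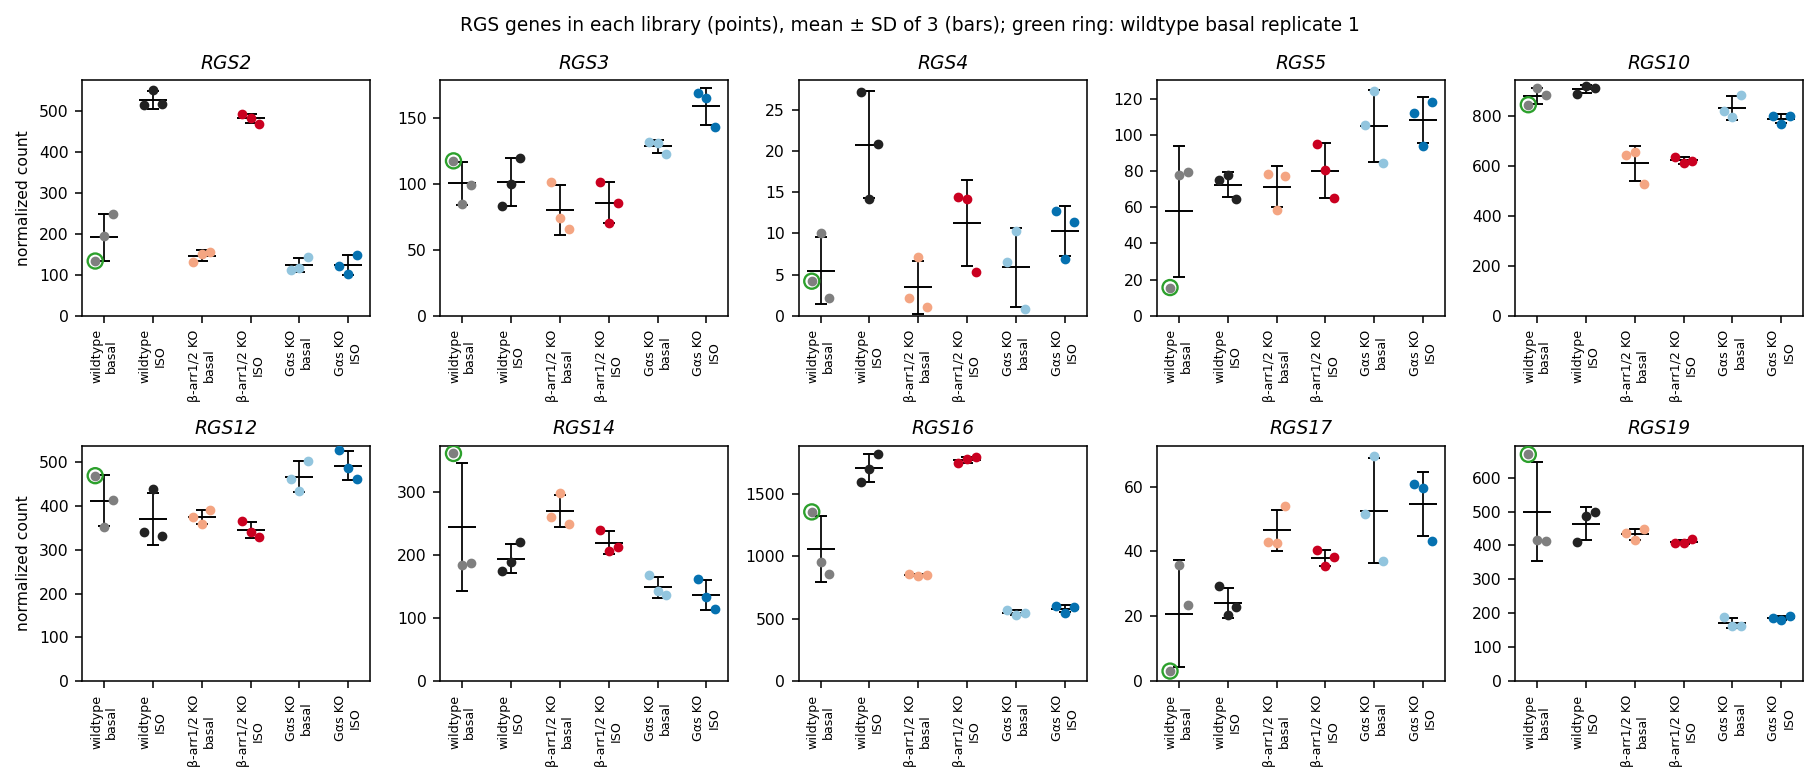
Normalized counts of the 10 RGS genes (y axis, linear from 0, a separate scale per gene) in each of the 6 groups of cell line and treatment (x axis, ISO for isoproterenol). Points are libraries, horizontal bars with whiskers the mean ± SD of 3, and the green ring marks wildtype basal replicate 1. RGS2 and RGS16 lie higher with isoproterenol in the wildtype line and in cells without β-arrestins, RGS19 and RGS16 are lowest in Gαs KO cells, and RGS10 is lowest in β-arrestin1/2 KO cells.

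In β-arrestin1/2 KO cells the question was whether these responses occur without the β-arrestins, which uncouple and internalize the receptor. The same 2 genes, RGS2 and RGS16, rose, where 1.13% of all genes tested were called, and none of the 10 fell. RGS2 had 131, 151 and 156 normalized counts at basal and 492, 482 and 468 with isoproterenol, with no overlap. Its log2 difference was 1.71 (SE 0.18), or 3.28-fold (adjusted p = 3.2e-05). RGS16 had 855, 844 and 847 at basal and 1743, 1779 and 1791 with isoproterenol. Each of these groups was tight, with an SD of 5.63 counts at basal and 24.9 with isoproterenol, and they lay far apart. The log2 difference of RGS16 was 1.06 (SE 0.12), or 2.09-fold (adjusted p = 7.9e-05). Neither call was lost in any of the 15 alternative fits made of each response, and the log2 differences stayed within 1.62 to 1.76 for RGS2 and within 1.04 to 1.12 for RGS16.

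RGS4 again had low counts in β-arrestin1/2 KO cells, with 2.1, 7.1 and 1.1 at basal and 14.4, 14.2 and 5.3 with isoproterenol. These groups overlapped, and the difference of 1.61 (SE 0.76) did not pass the test (adjusted p = 0.6). RGS14 (249.5 to 299 at basal, 206 to 240.1 with isoproterenol) and RGS17 (42.7 to 53.9 at basal, 35.4 to 40.3 with isoproterenol) were lower in all 3 stimulated libraries without passing the test (adjusted p = 0.77 and 0.89), as 14.4% of all genes tested were in this cell line. The mean GC content of this line was also higher at basal, at 49.76 to 50.1% per library, than in the stimulated libraries, at 49.29 to 49.43%. Beyond alternative fits with offsets for GC content and length, the part of this in the differences of single genes was not tested.

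In Gαs KO cells none of the 10 genes was called, where 0.0% of all genes tested were. At an unadjusted p under 0.05 the count was also 0 of the 10 and 164 of all genes, and DESeq2's Wald test called 0 of the 10 and 9 of all genes. RGS2 had 111, 115 and 143 normalized counts at basal and 120.4, 100.8 and 149 with isoproterenol. The 2 sets interleaved, with a log2 difference of 0.00 (SE 0.19) and a 95% interval from -0.4 to 0.4. RGS16 had 568, 529 and 544 at basal and 599.9, 545 and 594 with isoproterenol, and these sets overlapped as well. Its log2 difference was 0.08 (SE 0.12) with an interval from -0.18 to 0.35. RGS3, a regulator of Gαi and Gαq, had 132, 131 and 123 at basal and 169, 165 and 143 with isoproterenol, without overlap, as 4.9% of all genes tested were higher without overlap. The difference of RGS3 (0.31, SE 0.19) did not pass the test (adjusted p = 1.0). RGS4 had 6.5, 10.3 and 0.8 at basal and 12.7, 6.9 and 11.4 with isoproterenol, which overlapped.

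**Figure D2:**
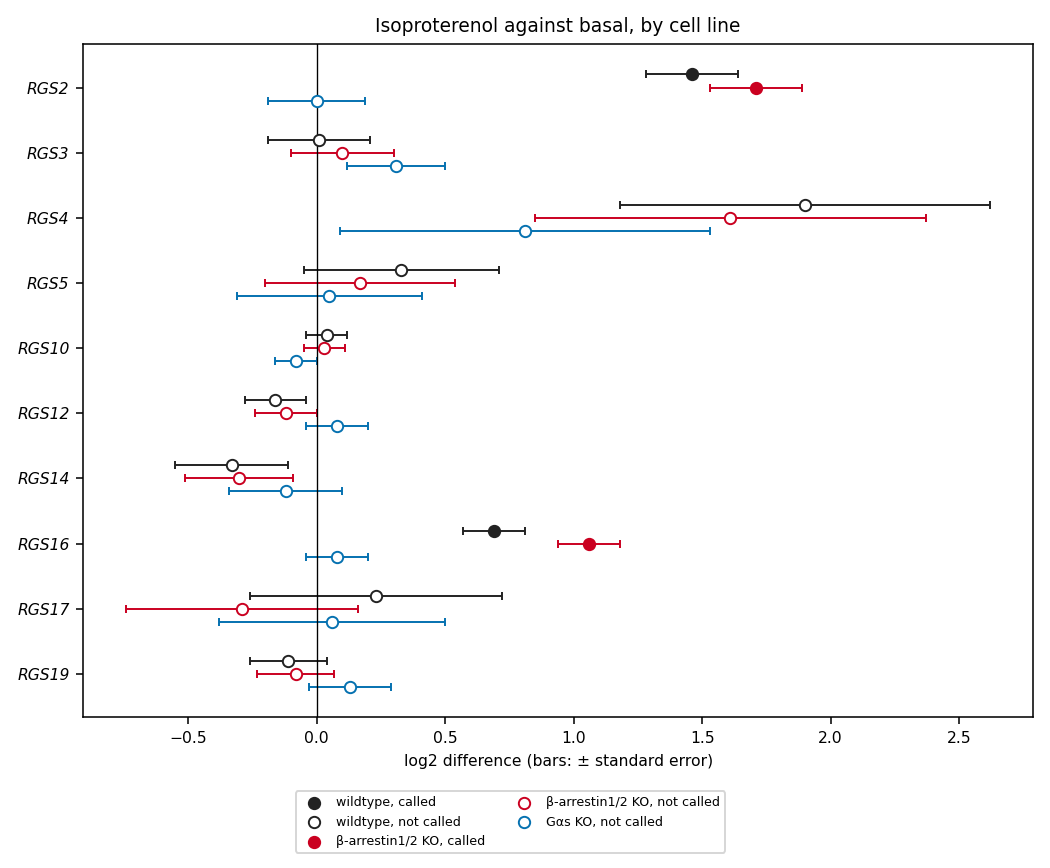
Log2 difference of isoproterenol against basal (x axis, bars ± standard error of the fit) for the 10 RGS genes (y axis) in the 3 cell lines, filled where the adjusted p was under 0.05. Filled points are RGS2 and RGS16 in the wildtype line (1.46 and 0.69) and in cells without β-arrestins (1.71 and 1.06), and the widest bars are those of RGS4.

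Whether a response differed between cell lines was tested as the log2 difference in the KO line minus that in wildtype cells, and both KO lines were set against the same 6 wildtype libraries. For Gαs KO against wildtype cells 1 of the 10 genes, RGS2, was called, where 0.161% of all genes tested were. The RGS2 response was lower by 1.46 on the log2 scale (difference -1.46, SE 0.26, 95% interval from -2.01 to -0.91, adjusted p = 0.027). That call was lost in 9 of the 21 alternative fits, with adjusted p values of up to 0.3, while the difference stayed between -1.69 and -1.26 in all of them. Leaving out single libraries took the adjusted p from 0.0036 without wildtype basal replicate 3 to 0.12 without Gαs KO basal replicate 3, and it was 0.0049 without wildtype basal replicate 1. The call was lost without Gαs KO basal replicate 2 or 3, Gαs KO isoproterenol replicate 1 or 2, wildtype basal replicate 2 or any of the 3 wildtype isoproterenol libraries, and with only the lines compared in the fit. The RGS16 response differed by -0.61 (SE 0.17, interval from -0.98 to -0.24), which did not pass over all genes (adjusted p = 0.51). Without wildtype basal replicate 1 the RGS16 value was -0.83 (adjusted p = 4.7e-05) and passed.

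For β-arrestin1/2 KO against wildtype cells 0 of the 10 genes were called, where 0.167% of all genes tested were. DESeq2's Wald test called 0 of the 10 and 104 of all genes. At an unadjusted p under 0.05 the count was 1 of the 10, RGS16, and 864 of all 15530 genes, so the RGS16 value does not set the 10 genes apart. The responses of RGS2 differed by 0.26 (SE 0.25), with an interval from -0.28 to 0.79. Those of RGS16 differed by 0.37 (SE 0.17), with an interval from 0.00 to 0.73 (adjusted p = 0.89). The RGS2 interval holds smaller as well as larger responses without the β-arrestins. Without wildtype basal replicate 1 the differences were 0.46 for RGS2 (adjusted p = 0.16) and 0.14 for RGS16 (adjusted p = 0.32). Over all genes the count of calls in this comparison rested on that library, with 26 genes called with it and 1301 without it.

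At basal, Gαs KO cells were compared with wildtype cells to see how the line differs before stimulation. Of the 10 genes 4 were lower (RGS2, RGS14, RGS16 and RGS19) and 1 was higher (RGS17), where 31.3% of all genes tested were called, 17.1% lower and 14.2% higher. Their median log2 difference was 0.00, beside 0.007 over all genes.

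RGS19 (ENSG00000171700, chromosome 20 from 64073181 to 64079988, minus strand), an RZ member that acts on Gαi family subunits, had 669, 417 and 414 normalized counts in wildtype and 189, 161 and 163 in Gαs KO basal libraries. Every Gαs KO library was far below every wildtype library. Its log2 difference was -1.55 (SE 0.15, 0.34-fold, adjusted p = 1.6e-06). The value was -1.28 (adjusted p = 1.3e-08) without wildtype basal replicate 1, the highest library. Isoproterenol left RGS19 at 187, 180.1 and 193 in Gαs KO cells, and in the order of the 6 groups both Gαs KO groups lay below the other 4, whose ranges overlapped from one to the next.

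RGS16 came next. Its basal counts of 568, 529 and 544 in Gαs KO cells lay below the wildtype values of 1355, 954 and 855 in every library. The log2 difference was -0.95 (SE 0.12, 0.52-fold, adjusted p = 2.7e-05), and -0.73 (adjusted p = 1.1e-07) without wildtype basal replicate 1. RGS16 and RGS19 were called in all 15 alternative fits. RGS2 was lower by 0.63 on the log2 scale (difference -0.63, SE 0.19, 0.64-fold, adjusted p = 0.016), although its ranges overlapped, with 111, 115 and 143 in Gαs KO against 133, 194 and 247 in wildtype libraries. The overlap was that of wildtype basal replicate 1, without which the RGS2 difference was -0.84 (adjusted p = 0.00021). The RGS2 call was lost without Gαs KO basal replicate 1 or 2 or wildtype basal replicate 3, with values from -0.59 to -0.41.

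RGS14 (ENSG00000169220, chromosome 5 from 177357837 to 177372601, plus strand), which binds Gαi and small GTPases, had 361, 184 and 187 normalized counts in wildtype and 168, 142 and 136 in Gαs KO basal libraries. The sets did not overlap, as 18.8% of all genes tested were lower without overlap, and the first wildtype library was near the sum of the other two. The log2 difference was -0.71 (SE 0.22, adjusted p = 0.02), and -0.32 without wildtype basal replicate 1, when the call was lost (adjusted p = 0.1), as it was without Gαs KO basal replicate 2 (-0.68) or 3 (-0.66). RGS17 (ENSG00000091844, chromosome 6 from 153004459 to 153131249, minus strand), an RZ member that acts on Gαi and Gαz, had 3.1, 35.7 and 23.5 in wildtype and 51.4, 69.3 and 36.9 in Gαs KO libraries. All Gαs KO libraries were higher, by little for the closest pair. The difference was 1.34 (SE 0.47, 2.53-fold, adjusted p = 0.04), and 0.82 (adjusted p = 0.036) without wildtype basal replicate 1, in which RGS17 was almost absent. The RGS17 call was lost without Gαs KO basal replicate 1 or 2 or wildtype basal replicate 3, with values from 1.09 to 1.44.

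RGS5, known as a marker of pericytes, had 15.6, 78.1 and 79.5 in wildtype and 105.5, 124.6 and 84.6 in Gαs KO libraries. They did not overlap, as 19.2% of all genes tested were higher without overlap, and the difference of 0.86 did not pass the test (adjusted p = 0.093), being 0.41 without wildtype basal replicate 1. RGS3 had 118, 84.7 and 99.6 in wildtype libraries against 132, 131 and 123, also without overlap, and did not pass (adjusted p = 0.19). The levels of RGS10 and RGS12 overlapped between the lines (adjusted p = 0.5 and 0.28), as did those of RGS4 (adjusted p = 0.95). Without wildtype basal replicate 1 none of these 5 genes was called either, with 0.48 for RGS3 (adjusted p = 0.073), 0.28 for RGS12 (adjusted p = 0.062), -0.11 for RGS10 and -0.08 for RGS4.

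At basal, β-arrestin1/2 KO cells differed from wildtype cells in 1 of the 10 genes, RGS10, where 33.5% of all genes tested were called and 17.9% were called lower. RGS10 (ENSG00000148908, chromosome 10 from 119499828 to 119542708, minus strand), a regulator of Gαi, had 846, 913 and 883 normalized counts in wildtype and 643, 658 and 529.7 in β-arrestin1/2 KO libraries. The groups were well apart and wildtype basal replicate 1 was near the other wildtype libraries. The log2 difference was -0.53 (SE 0.08, 0.69-fold, adjusted p = 0.00015), and -0.55 (adjusted p = 1.8e-05) without wildtype basal replicate 1. With isoproterenol RGS10 remained at 637, 610.2 and 621 in β-arrestin1/2 KO cells and at 888, 919.8 and 914 in wildtype cells, so both β-arrestin1/2 KO groups lay below the other 4 groups in every library. When the fit held no libraries beyond these 6, the adjusted p of the basal difference was 0.059.

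The values of RGS2, RGS14, RGS16 and RGS17 in this comparison moved without wildtype basal replicate 1. RGS2 had a log2 difference of -0.39 (adjusted p = 0.12), which became -0.59 and passed (adjusted p = 0.0039) without that library. RGS14 went from 0.15 (adjusted p = 0.64) to 0.55 (adjusted p = 0.0076). RGS16 went from -0.31 (adjusted p = 0.06) to -0.09 (adjusted p = 0.29). RGS17, with 43.0, 42.7 and 53.9 in β-arrestin1/2 KO libraries, was above all wildtype libraries, as were 19.4% of all genes tested, and went from 1.17 (adjusted p = 0.069) to 0.65 (adjusted p = 0.089). The other 5 genes were called in neither fit. RGS3 went from -0.32 to -0.19, RGS4 from -0.57 to -0.73 and RGS12 from -0.14 to -0.03, while RGS5 (0.31 to -0.14) and RGS19 (-0.21 to 0.06) changed sign. The count of called genes was 1 with that library and 3 (RGS2, RGS10 and RGS14) without it.

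**Figure D3:**
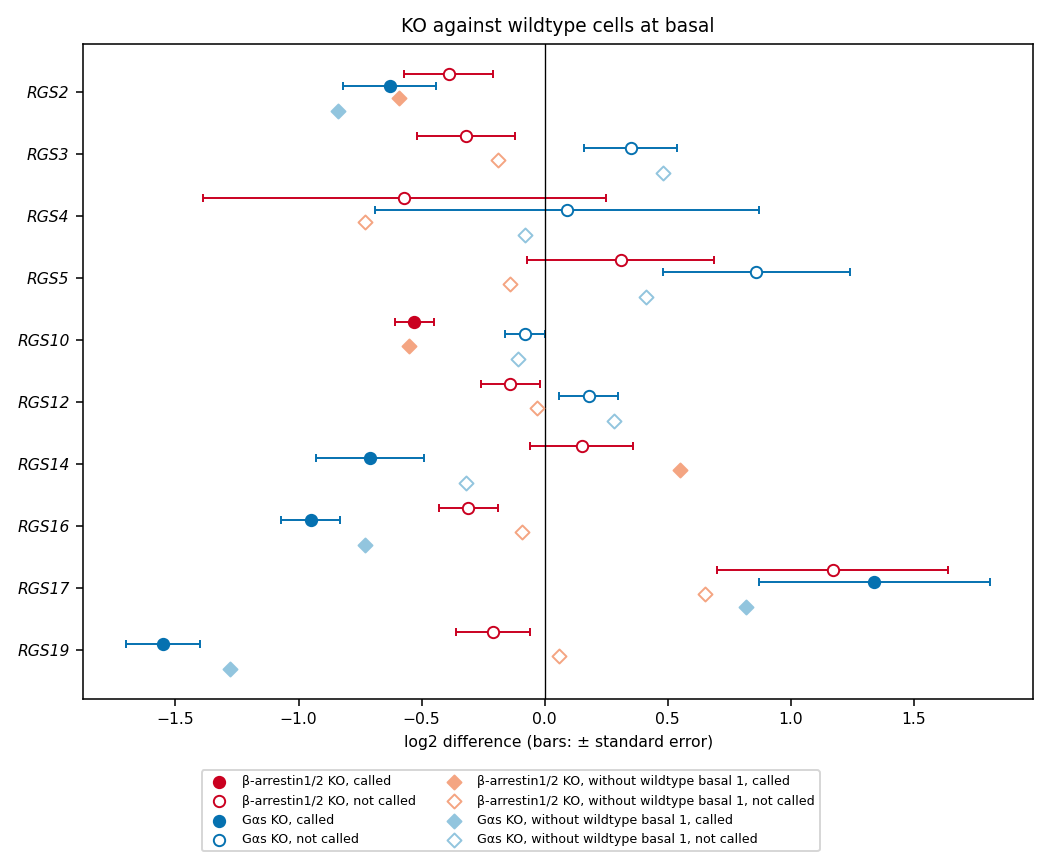
Log2 difference at basal between each KO line and the wildtype line (x axis) for the 10 RGS genes (y axis), from all libraries (circles, bars ± standard error) and without wildtype basal replicate 1 (diamonds), filled where the adjusted p was under 0.05. RGS19 and RGS16 in Gαs KO cells and RGS10 in β-arrestin1/2 KO cells are filled in both fits, whereas RGS14 changes from filled to open in Gαs KO cells and from open to filled in β-arrestin1/2 KO cells.

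The departure of wildtype basal replicate 1 went with the base composition of the 10 genes. Relative to the mean of replicates 2 and 3, RGS17 (GC content 38.1%) stood at 0.11, RGS5 (40.6%) at 0.2 and RGS2 (41.5%) at 0.6. RGS4 (41.6%) stood at 0.68 and RGS10 (48.9%) at 0.94. The order was not strict, since RGS16 (53.4%) stood at 1.5, above RGS12 (57.3%) at 1.22 and RGS3 (58.9%) at 1.28. At the other end RGS19 (62.8%) stood at 1.61 and RGS14 (63.6%) at 1.95. The genes with the lowest GC content were thus lowest and those with the highest were highest in this library. Beyond the fit with offsets given next, the part of base composition in the differences between groups was not tested for single genes. With offsets for GC content and length in the fit, RGS2 and RGS16 were called in both the wildtype response and the Gαs KO difference.

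**Figure D4:**
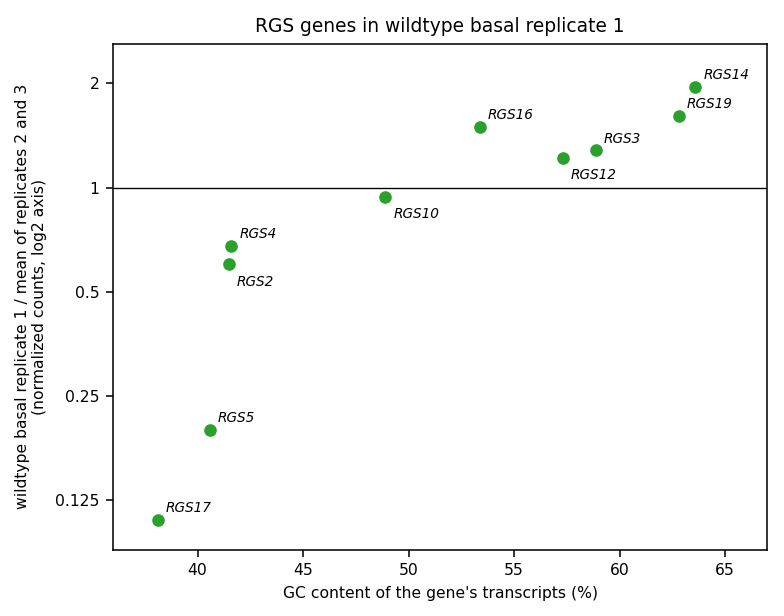
Normalized counts of the 10 RGS genes in wildtype basal replicate 1 divided by the mean of replicates 2 and 3 (y axis, log2 scale) against the GC content of the genes' transcripts in percent (x axis). Each point is a gene, and the ratios run from 0.11 for RGS17 at 38.1% to 1.95 for RGS14 at 63.6%.

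The proteins around the RGS genes were described from 4 lists. Together 36 of their genes were tested, and in the fit to all libraries none was called in the response of any cell line or in a difference between responses. Of all genes tested, 0.464% were called in the wildtype, 1.13% in the β-arrestin1/2 KO and 0.0% in the Gαs KO response. The shares were 0.167% for the β-arrestin1/2 KO and 0.161% for the Gαs KO difference. Having none called therefore does not set the lists apart from all genes. At basal 10 of the 36 were called in β-arrestin1/2 KO and 9 of the 36 in Gαs KO cells. Over all genes tested 33.5% and 31.3% were called. The shares of the lists were smaller than those of all genes here, but larger without wildtype basal replicate 1, as given below. No difference between the lists and all genes is therefore drawn from these shares. Of 11 other RGS genes 5 could be tested, and at basal 2 were higher in β-arrestin1/2 KO cells, RGS9 (0.82, adjusted p = 0.001) and RGS7 (1.86, adjusted p = 0.038), both of the subfamily that pairs with Gβ5. Their median log2 difference was 0.78. In Gαs KO cells RGS6 of the same subfamily (1.40, adjusted p = 0.0084) and RGS20 of the RZ subfamily (0.51, adjusted p = 0.026) were higher, with a median of 0.39 over the 5 genes. Of 16 further proteins with an RGS domain 14 were tested. The receptor kinase GRK3 was lower in both KO lines (-0.77 in β-arrestin1/2 KO and -0.74 in Gαs KO cells), GRK5 was lower in β-arrestin1/2 KO cells (-0.53), and GRK2 was higher in Gαs KO cells (0.43). SNX13 was higher in β-arrestin1/2 KO cells (0.53) and AXIN1 lower in Gαs KO cells (-0.39), which makes 1 higher and 2 lower in each line, with medians of 0.00 and -0.08.

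Among the Gα subunits other than Gαs, a list that holds the substrates of RGS proteins but not only these, 10 of 12 were tested. At basal 1 was higher and 2 lower in each KO line. Over all genes tested 33.5% were called in β-arrestin1/2 KO and 31.3% in Gαs KO cells. GNAI2 was higher (0.37 in β-arrestin1/2 KO and 0.60 in Gαs KO cells), and both GNAZ (-0.72 and -0.60) and GNAL (-0.59 and -1.04) were lower. GNAL encodes Gαolf, the closest relative of Gαs. The medians over the list were 0.01 and -0.08. Of 9 partners and other regulators of Gα 7 were tested. RIC8A, a chaperone of Gα subunits, was higher (0.38) and GPSM1 lower (-0.88) in β-arrestin1/2 KO cells, and RGS7BP, which anchors RGS7 complexes at the membrane, was lower in Gαs KO cells (-0.59). The basal comparisons of the 2 KO lines share the wildtype libraries, replicate 1 included. Without that library 9 of the 10 calls in β-arrestin1/2 KO and 7 of the 9 in Gαs KO cells stood, and 0 of the 19 changed sign. The calls lost were those of GRK5 (-0.29, adjusted p = 0.078), RGS20 (0.44, adjusted p = 0.056) and AXIN1 (-0.16, adjusted p = 0.068). Among the calls that stood in β-arrestin1/2 KO cells, RGS7 moved to 1.27, SNX13 to 0.25, GPSM1 to -0.53 and RIC8A to 0.61. RGS7 had low counts in the wildtype basal libraries, at 0.0, 7.81 and 26.9 normalized counts. The counts at basal became 19 of 36 (52.8%) and 17 of 36 (47.2%), where 46.7% and 45.9% of all genes were called. In the difference between the responses of β-arrestin1/2 KO and wildtype cells 6 of the 36 genes were then called, where 8.24% of all genes were. They were AXIN2, GPSM1 and RIC8A, with lower values, and SNX14, GNAQ and GNA13, with higher ones, and are named here after their values were seen.

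The levels of RGS2 and RGS16 were then compared with those of all other genes tested over the 18 libraries, on the log2 scale. RGS2 was most like ZFP36L2 (Pearson's r = 0.977), NR4A2 (0.97) and TRIB1 (0.949), and RGS16 was most like NR4A1 (0.979), RHOB (0.969) and DUSP5 (0.963). RGS2 and RGS16 had an r of 0.9 with each other. These values describe libraries that share cell lines, treatments and scaling. In the order of the 6 groups RGS2 was highest in stimulated wildtype cells (526 ± 21.5), then in stimulated β-arrestin1/2 KO cells (481 ± 11.7), and both were apart from each other and from the remaining groups, each of which overlapped with the next. RGS16 was highest in stimulated β-arrestin1/2 KO (1771 ± 24.9) and wildtype cells (1705 ± 113), which overlapped, then in the basal groups of these lines, and lowest in the Gαs KO groups (580 ± 29.9 and 547 ± 19.3).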

How the data were processed

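Expected counts, as deposited by the authors, are the 150-bp read pairs that Salmon 1.7.0 estimated for each of 184844 transcripts in 18 libraries, not normalized, and 0 columns were left unused. The transcript index is not given in the sources used here. Transcripts were joined to GENCODE release 29 (GRCh38), 161838 of them matching, and summed and rounded per gene. In R 4.3.3, edgeR 4.0.16 scaled libraries by TMM, filtered with filterByExpr, and fitted a quasi-likelihood model with 1 coefficient per group to all 18 libraries. A gene was called in a comparison (of 7) when its p, adjusted over all 15530 genes by Benjamini and Hochberg, was under 0.05. The standard error is the log2 difference divided by the square root of F. Normalized counts are counts divided by TMM-adjusted library size, and TPM was computed from counts and transcript lengths. Counting error is included in the spread between libraries.

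All 10 genes are named, and listed genes only if called, at most 3 per list and comparison. The genes, lists and tests were chosen with earlier results of these data known. Alternatives were DESeq2 1.42.0 (size factors, and Wald test), upper-quartile scaling, other filters, GC and length offsets (lowess span 0.3), only the groups compared, a replicate block, each library left out, an adjusted p under 0.01 and an absolute log2 difference of at least 1. On simulated counts for the wildtype response (15350 genes), 39% of genes changed 1.5-fold and 92% of those changed 3-fold were recovered, with 3 unchanged genes called. Recovery was lower for differences between responses. In the β-arrestin1/2 KO difference 8% of genes changed 1.5-fold and 81% of those changed 3-fold were recovered, and in the Gαs KO difference 11% and 78%. The transcript level of 1 gene set as a check of the labels, that of the transfected receptor, is not reported here. Figures were drawn with matplotlib 3.10.9.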

Additional observations from a re-analysis of the deposited data

Results flagged for a closer look

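The response of RGS2 to isoproterenol differed between Gαs KO and wildtype cells by the test of the difference itself. The log2 difference between the responses was -1.46 (SE 0.26, adjusted p = 0.027 in edgeR's quasi-likelihood test), with RGS2 higher in 3 of 3 stimulated wildtype libraries than in any basal one and with interleaved values in Gαs KO cells. The call was lost in 9 of 21 alternative fits, as given above for the single libraries. Groups of 3 are too small for a test of outlying libraries.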

How the results depend on the processing

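Of the 70 values of 10 genes in 7 comparisons, 11 were called, and 0 of these 11 changed sign in any alternative. Of the 52 values called in no fit, 25 changed sign in at least 1. In the wildtype response, where 2 of the 10 genes were called, the count was 0 with only the groups compared, 1 at an adjusted p under 0.01 or an absolute log2 difference of at least 1 (RGS2 each time), and 1 to 2 when single libraries were left out. The counts of 2 in the β-arrestin1/2 KO response, 0 in the Gαs KO response and 0 in the β-arrestin1/2 KO difference were the same in every alternative. For the Gαs KO difference, with 1 called, the count was 2 with GC and length offsets, with or without the replicate block, 0 with only the groups compared or at an adjusted p under 0.01, and 0 to 2 without single libraries. For β-arrestin1/2 KO against wildtype cells at basal, with 1 called, it was 3 with DESeq2's Wald test (RGS10, RGS16 and RGS17), 4 with GC and length offsets, with or without the replicate block (RGS2 in addition), 0 with only the groups compared or an absolute log2 difference of at least 1, and 1 to 3 without single libraries. The log2 difference of RGS14 there ran from -0.02 to 0.55 without single libraries. For Gαs KO against wildtype cells at basal, with 5 called, the count was 2 with only the groups compared, at an adjusted p under 0.01 (RGS16 and RGS19 both times) or with an absolute log2 difference of at least 1 (RGS17 and RGS19), and 2 to 6 without single libraries. The cause of these changes was not tested, apart from the stricter thresholds and the fewer libraries by which the alternatives were made.

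Replicate numbers did not pair the libraries, since the correlations of same-numbered departures from the group means ran from -0.0931 to 0.066. The replicate block alone gave 2, 2, 0, 0, 1, 1 and 5 called genes in the 7 comparisons, in the order in which the report gives the responses, then for the β-arrestin1/2 KO and Gαs KO differences, and then at basal for the same lines, and it changed no call.

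Counts over all genes moved more. In the wildtype response 72 genes were called (64 higher), against 186 with DESeq2's Wald test, 225 (157 higher) with offsets, 217 with offsets and block, 13 with only the groups compared and 28 at an absolute log2 difference of at least 1. In the β-arrestin1/2 KO response 175 were called, against 291, 377, 372, 1161 and 62 in the same order, and 110 at an adjusted p under 0.01. The β-arrestin1/2 KO difference had 26, against 104, 121, 116, 9 and 16, and 13 at the stricter p. The Gαs KO difference had 25, against 68, 56, 52 and 15 with only the groups compared. At basal 5210 and 4863 genes were called, against 1502 and 1587 with only the groups compared, 3329 and 3050 at an adjusted p under 0.01, and 1256 in each at an absolute log2 difference of at least 1. With counts of 1 to 25 per library, RGS4 is at the limit of what this depth can compare, and small responses of any gene were often missed on simulated counts.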
